A study of Mus musculus with 6 samples.

Results

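The transcripts described here come from 9 mouse genes of neurons and their synapses, Snap25, Syt1, Camk2a, Map1b, Gad1, Anks1b, Cdh18, Nrxn3 and Map2, as they appeared in MARIO libraries of brain. The genes were chosen by name, out of 22380 protein-coding genes of the annotation. A brain read pair was assigned to a gene when either fragment lay in the gene by its stated position, read as GRCm38, or when its sequence was placed in the gene on NCBIM37. The names deposited with the brain read pairs did not match the positions and were not used. Of 747404 distinct brain read pairs, 7456 had an end in at least 1 of the 9 genes, which is 0.998% (95% Wilson interval 0.975 to 1.02).

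MARIO joins the ends of RNAs held by the same protein through a biotinylated RNA linker, so that each chimera reads as a first fragment (RNA1), the linker and a second fragment (RNA2). Brain 1 and brain 2 are technical replicates of the whole brain of 1 adult C57BL/6J female, whose tissue was powdered and exposed 3 times to ultraviolet light of 254 nm, with a dose of 400 mJ/cm2 each, before the RNA was cut to about 1000 nt with RNase I. ES indirect is the library of E14 embryonic stem cells, of 129/Ola origin, whose proteins were crosslinked with formaldehyde and EGS, which also bind protein to protein, and whose RNA was sheared by sonication to about 1000 nt. ES-1 and ES-2 are assays on the same cell line, and MEF is a library of C57Bl/6 embryonic fibroblasts, all 3 crosslinked with ultraviolet light, with shorter RNA in MEF (about 300 nt). No mutant genotype, drug or time course separates these groups, but the strain differs between brain and the stem cells. Since the brain came from 1 animal, no spread between animals can be given, and brain 1 and brain 2 were counted as 1 library over distinct positions. The intervals given here cover counting error only.

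Neurons release transmitter when a calcium sensor on the vesicle triggers membrane fusion by SNARE proteins, and they receive it at a density of kinases, receptors and scaffolds. Adhesion proteins such as neurexins and cadherins hold both sides of the synapse together, and the microtubules of axons and dendrites are bundled by MAP proteins. Many of the genes for adhesion and scaffold proteins are among the longest in the genome because of their introns, so that nascent transcripts carry far more intron than exon sequence.

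The files held 1045814 read pairs for brain 1 and 1114447 for brain 2, which fell to 602207 and 608759 distinct positions, with 463562 positions present in both. After placement by sequence, 888657 brain fragments lay in protein-coding genes. The deposited names gave 1086926 such ends for ES indirect. Marker genes were checked against the labelled tissue. All 8 neuronal markers had ends in brain, as had all 6 astrocyte and all 6 oligodendrocyte markers, and 5 of 8 markers of ES cells, Pou5f1, Nanog, Zfp42, Tdgf1 and Dppa5a, were at 0. Whole brain holds neurons beside glia, so that fewer cells of a type and less RNA per cell cannot be told apart in these values.

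The pair of genes that act in vesicle release was well covered. Snap25, the SNARE protein of the presynaptic membrane, spans 136539189 to 136608164 of chromosome 2 on NCBIM37. It had 617 distinct read pairs, 497 of them in brain 1 and 474 in brain 2. Syt1, the calcium sensor of the vesicle, lies at 107934706 to 108448038 of chromosome 10, on the reverse strand. It had 920 distinct read pairs, 749 in brain 1 and 774 in brain 2.

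Among the genes that act on the receiving side and in signalling, Camk2a, a kinase of the postsynaptic density on chromosome 18, had 1322 distinct read pairs, with 1066 in brain 1 and 1037 in brain 2. Anks1b, a scaffold protein of the postsynaptic density, lies at 89336417 to 90435730 of chromosome 10 and had 799, with 657 and 670. Gad1, which makes the transmitter GABA from glutamate, lies at 70391129 to 70440071 of chromosome 2 and had 169, with 146 and 139. Gad1 had the fewest distinct read pairs of the 9 genes.

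Of the adhesion genes, Nrxn3, a presynaptic neurexin, lies at 89961320 to 91573375 of chromosome 12 and had 1677 distinct read pairs, the largest number of the 9 genes, with 1428 in brain 1 and 1409 in brain 2. Cdh18, a cadherin, lies at 22478777 to 23404173 of chromosome 15 and had 222, with 183 and 189. The microtubule-associated genes followed. Map1b, on the reverse strand at 100191419 to 100286557 of chromosome 13, had 1061, with 854 and 890. Map2, the dendritic microtubule-associated protein, lies at 66221847 to 66489157 of chromosome 1 and had 670, with 551 and 571. Brain 1 and brain 2 gave close counts in each gene, and between 57.4% (Snap25) and 69.2% (Nrxn3) of the distinct read pairs of a gene were in both files.

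Exon and intron ends divided the 9 genes. An end was called exonic when it overlapped an exon of any annotated transcript by at least 1 base. Of 13310 ends that were placed by sequence, 7376 were exonic, or 55.4% (54.6 to 56.3), and 5934 were intronic. Of the exonic ends 121 crossed a boundary between an exon and an intron. The share by gene was 92.8% in Gad1 (89.3 to 95.2), 91.9% in Map1b (90.5 to 93.0) and 90.8% in Camk2a (89.6 to 91.9). It was 81.6% in Map2 (79.3 to 83.7) and 78.7% in Snap25 (76.1 to 81.1), and 46.3% in Syt1 (43.9 to 48.7). The long scaffold and adhesion genes stood at the other end. Anks1b had 14.1% (12.4 to 16), Nrxn3 11.8% (10.7 to 13) and Cdh18 4.84% (3.08 to 7.52).

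Set against the 7539 protein-coding genes with at least 20 brain ends, whose median exonic share was 70.1% with quartiles of 45.7% and 88.7%, 5 of the 9 genes lay above the median. Gad1 was above 81.8% of those genes. Cdh18 was above 1.92% of them, Nrxn3 above 4.39% and Anks1b above 5.31%. Exons make up 15.6% of the length of Gad1, 1.62% of that of Syt1 and 0.492% of that of Cdh18. The exonic shares did not follow this order throughout. Snap25, where exons make up 9.85% of the length, had a lower exonic share than Map2, where they make up 6.15%.

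**Figure D1:**
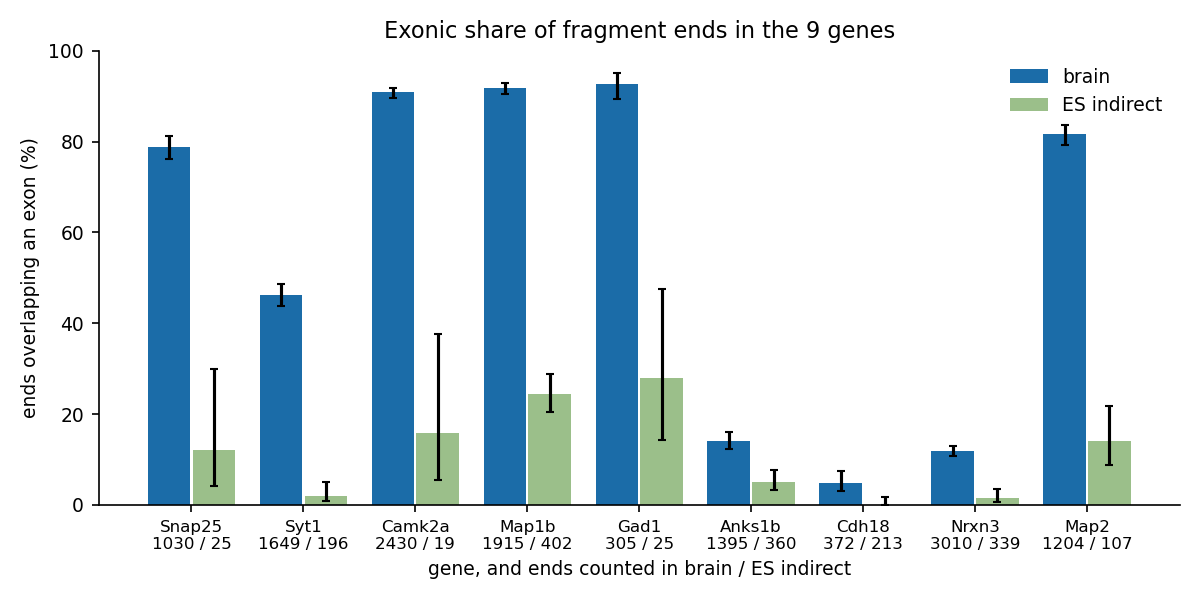
Share of ends that overlapped an exon in each of the 9 genes (vertical axis, percent) in brain and in ES indirect, with 95% Wilson intervals as bars and the number of ends under each gene. The brain share ranged from 4.84% in Cdh18 to 92.8% in Gad1, and the ES indirect share was lower in each gene, from 0% to 28%. Brain ends were classed after placement by sequence, while ES indirect ends were taken by deposited name without such placement.

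Per length, exons were covered more densely than introns in each of the 9 genes. Camk2a had 296 exonic ends per kb of exon and 4.05 intronic ends per kb of intron. The ratio of these densities was 77.6 in Map1b, 73.0 in Camk2a, 69.6 in Gad1, 67.5 in Map2, 52.2 in Syt1 and 33.9 in Snap25. It was 17.6 in Anks1b, 17 in Nrxn3 and 10.3 in Cdh18.

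The level of exonic ends per kb of exon and per 1000000 ends in protein-coding genes (EPM is ends per 1000000 such ends) gave an order with Camk2a first at 333 (95% Poisson interval 319 to 347), then Map1b at 164 (156 to 172), Snap25 at 134 (125 to 144) and Syt1 at 103 (95.8 to 111). Map2 stood at 67.2 (63.1 to 71.5), Gad1 at 41.7 (37.0 to 46.8), Nrxn3 at 31.7 (28.5 to 35.2), Anks1b at 21.8 (18.8 to 25) and Cdh18 at 4.45 (2.64 to 7.03). No pair of neighbours in this order had intervals that overlapped. The intronic level per kb of intron varied less, from 4.56 in Camk2a and 3.96 in Snap25 to 0.599 in Gad1 and 0.433 in Cdh18.

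Within the exonic ends, coding sequence and untranslated regions took different shares by gene. Camk2a had 1599 of 2207 exonic ends in its 3′ UTR (72.5%), Syt1 519 of 763 (68.0%) and Snap25 468 of 811 (57.7%). In Map1b 1240 of 1759 exonic ends were coding (70.5%), in Map2 574 of 982 (58.5%), in Gad1 161 of 283 (56.9%) and in Nrxn3 192 of 356 (53.9%). Of the 18 exonic ends of Cdh18, 16 were coding and none was in the 3′ UTR. The 5′ UTR took 18.8% of the exonic ends of Nrxn3 and 16.5% of those of Snap25, and 0.341% of those of Map1b.

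**Figure D2:**
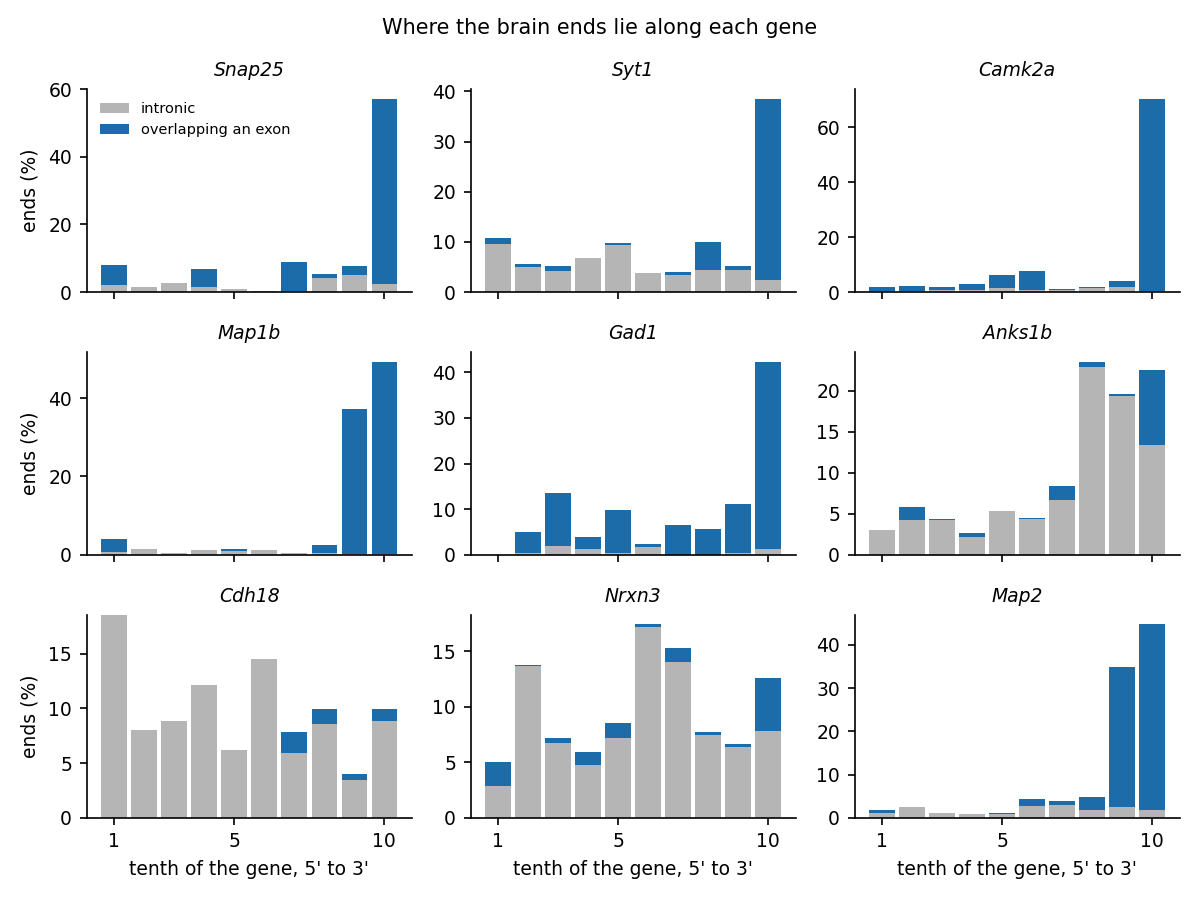
Share of brain ends (vertical axis, percent of the ends of a gene) in each decile of the length of the gene from its 5′ to its 3′ end, with intronic ends in grey and ends overlapping an exon in blue. The last decile held 70.4% of the ends of Camk2a and 57.2% of those of Snap25, while the intronic ends of Nrxn3 and Cdh18 lay along the whole gene.

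Along the gene the exonic genes were heaviest at the 3′ end. The last decile of Camk2a held 1711 of its ends and that of Snap25 held 589. In Map1b the ninth and the last decile held 711 and 944 ends. Nrxn3 had its highest counts in the sixth decile, with 524 ends, of which 518 were intronic, and in the seventh, with 459, of which 423 were intronic. Anks1b had 329 ends in the eighth decile, of which 319 were intronic. Cdh18 had 69 ends in its first decile, all of them intronic.

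Spliced fragments were present for all 9 genes. Of the classed ends 1073 had a sequence that was interrupted by an intron, and 1151 of their 1157 junction crossings matched an annotated intron of the gene exactly (99.5%, 98.9 to 99.8). The placement used the annotated introns as hints. Camk2a had 463 crossings over 18 of its 21 annotated introns, Snap25 had 177 over 9 of 9, Map2 had 138 over 21 of 36, Gad1 had 97 over 16 of 22, Map1b had 95 over 6 of 8 and Syt1 had 88 over 11 of 14. Anks1b had 50 and Nrxn3 47, over 19 and 22 annotated introns. Cdh18 had 2.

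Snap25 has a pair of mutually exclusive exons of 118 bases each, which give alternative forms of the protein. The first lies at 136595479 to 136595596 of chromosome 2 (NCBIM37) and the second at 136595793 to 136595910. The 30 bases of the forward strand over the junction from the exon before are shown for each choice, from the reference genome, with the alternative exon in capitals, because fragments are told apart by these bases.
Snap25, first alternative exon: tggatgagcaaggcgAACAACTCGATCGTG
Snap25, second alternative exon: tggatgagcaaggcgAACAACTGGAACGCA
Junctions into the second exon were crossed by 7 fragments and junctions out of it by 8, against 1 and 1 for the first. The stated positions, which did not use these hints, held 11 gaps with the length of the intron before the second exon, 6435 bases, and 1 gap of 6121 bases, the length of the intron before the first. For the introns that follow, the counts were 10 gaps of 3720 bases and 2 gaps of 4034 bases. The second exon had the higher count by both placements.

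Map2 has a coding exon of 3741 bases, at 66458981 to 66462721 of chromosome 1, that the short form of the protein lacks. It held 334 of the 1204 classed ends of Map2. A junction into it was crossed by 6 fragments, and the 1 annotated intron that skips it was crossed by none.

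The strand was nearly uniform. Both fragments were read on the strand of their RNA, which for RNA2 is the reverse of the stated strand. Of 14278 ends in the 9 genes, 14190 were on the sense strand, or 99.4% (99.2 to 99.5). The share by gene ran from 98.6% in Map1b (98 to 99) to 99.9% in Camk2a (99.66 to 99.96). Map1b had 29 of the 88 antisense ends, 19 of them exonic. The median over the 7539 genes was 100%, with the lower quartile at 96.6%, so the 9 genes were not set apart by strand.

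In most read pairs both ends lay in the same gene. This held for 6821 of 7456 read pairs, or 91.5% (90.8 to 92.1), and in each gene for between 86.1% (Snap25) and 95.9% (Gad1). Where both fragments had to be placed by sequence, the share by gene fell to between 73.1% (Snap25) and 85.1% (Camk2a), and the median over the 7539 genes by that measure was 82.4%. By that like-for-like measure 4 of the 9 genes were above the median. For RNA structure, the paper dropped same-gene read pairs without linker sequence, or facing each other within 2000 bases as in an intact RNA. That filter was not applied here, so read pairs within a gene are not all contacts. Only 1 end lay in the 9 genes in 3.14% of read pairs of 80 and 88 bases (2.71 to 3.63). For read pairs of other lengths it was 24.1% (22.3 to 26.1).

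The genomic span from the outermost base of one fragment to that of the other was short. Its median was 211 bases, with quartiles of 189 and 247, and 10% of the read pairs within a gene spanned over 3837 bases. Medians by gene were between 207 (Anks1b and Nrxn3) and 219 (Camk2a), apart from Gad1 at 1197. The share of spans over 2000 bases was 35.2% in Gad1 (28.3 to 42.8) and 33.7% in Snap25 (29.8 to 37.8), against 3.93% in Nrxn3 (3.07 to 5.02) and 3.54% in Cdh18 (1.72 to 7.12). Of all 817 such read pairs, 709 had both ends in exons, 7 had both in introns and 6 had one in each, and the rest had an end that was not placed by sequence.

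Counted along exons only, the long spans were mostly short. Of the 709 long exonic read pairs, 628 covered at most 2000 bases of exon. The median exonic read pair covered 222 exon bases in Gad1, 203 in Snap25, 210 in Syt1 and 210 in Camk2a. For 3 read pairs, 2 of Anks1b and 1 of Nrxn3, the stated blocks spread over more than the length of the gene, and these spans are not distances within the gene.

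**Figure D3:**
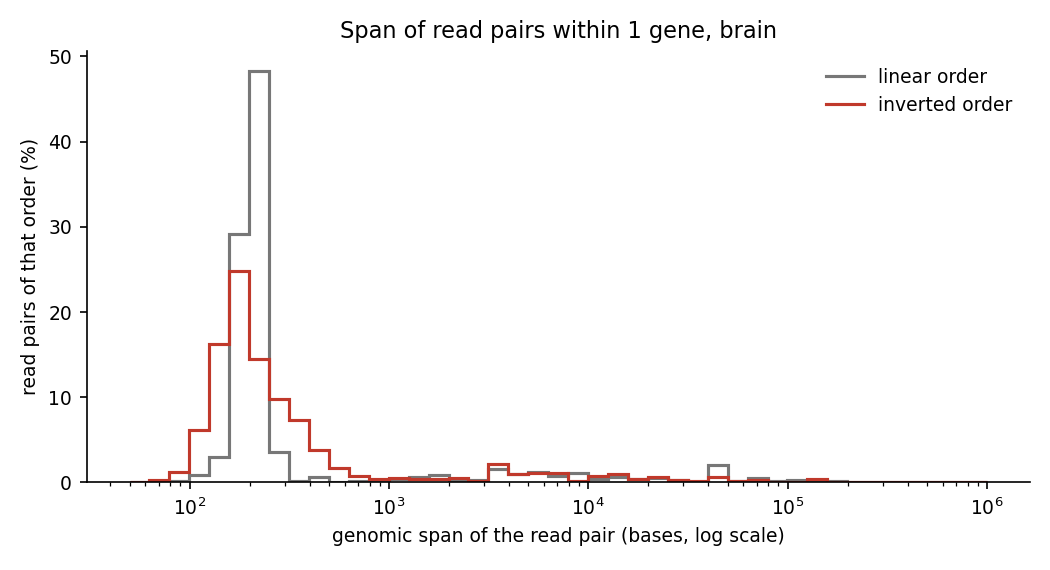
Genomic span of brain read pairs within 1 gene (horizontal axis, bases, log scale) as the percent of the read pairs of each order (vertical axis), for linear and for inverted order. Both orders had most of their read pairs between about 100 and 400 bases.

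The order of the fragments along the RNA split the read pairs within a gene. In 4972 of 6821, or 72.9% (71.8 to 73.9), RNA1 lay upstream of RNA2, here called linear order. In 1843, or 27.0% (26.0 to 28.1), RNA2 lay upstream of RNA1, here called inverted order. Where both fragments were placed by sequence the inverted share was 19.5% (18.5 to 20.5), against 20.1% in the other protein-coding genes (19.97 to 20.22), and at a mapping quality of at least 30 it was 16.6%. Inverted order made up 21.0% in Camk2a (18.8 to 23.3), 25.3% in Gad1 (19.2 to 32.5), 26.9% in Snap25 (23.3 to 30.9), 29.2% in Nrxn3 (27.0 to 31.5) and 30.8% in Cdh18 (24.8 to 37.6). The intervals of most genes overlapped. That of Camk2a lay below those of all others but Gad1, and it touched that of Snap25 at 23.3%.

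The lengths of the fragments went with the order. Of the linear read pairs, 4933 of 4972 had an RNA1 of exactly 80 and an RNA2 of exactly 88 bases (99.2%, 98.9 to 99.4), against 432 of 1843 inverted read pairs (23.4%, 21.6 to 25.4). Seen from the other side, 1911 read pairs of the 9 genes had other lengths. In 1450 of these both ends were in the same gene, and 1411 of the 1450 were inverted (97.3%, 96.3 to 98.0) while 39 were linear. Among the read pairs of 80 and 88 bases, 8.04% of those within a gene were inverted (7.35 to 8.80). A fragment under 40 bases was present in 33.4% of inverted and in 0.282% of linear read pairs.

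The other protein-coding genes of brain showed the same split. With both fragments placed by sequence, 95.9% of their read pairs within a gene were inverted where the lengths were other than 80 and 88 bases (95.7 to 96.1), and 8.71% where they were 80 and 88 bases (8.62 to 8.81). By the same measure the 9 genes had 97.1% (95.7 to 98.1) and 8.04% (7.33 to 8.81). The part of fragment length in the order was not tested.

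The median gap between the fragments was 40 bases in linear and 39 in inverted order, but the share of abutting fragments differed. In 587 of 1843 inverted read pairs, or 31.9% (29.8 to 34.0), the end of RNA2 and the start of RNA1 were within 2 bases of each other, so that RNA2 ran directly into RNA1 along the transcript. In linear order 40 of 4972 read pairs had a gap within 2 bases, or 0.805% (0.591 to 1.09). The abutting share of inverted read pairs was between 26.2% in Cdh18 (16.8 to 38.4) and 36.9% in Map1b (31.4 to 42.8), with overlapping intervals. Where both fragments were placed by sequence, the abutting share of the 9 genes was 37.2% with both ends exonic (33.4 to 41.1) and 33.1% with both intronic (29.3 to 37.1). By that measure the other protein-coding genes had 36.2% (35.8 to 36.7) and 34.5% (34.02 to 35.02), inside the intervals of the 9 genes.

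An abutting read pair of Map1b shows the arrangement. It had the most lines, 4 in brain 1 and 3 in brain 2, of the Map1b read pairs with a gap of 0, and both fragments, of 80 and 88 bases, were exonic. The 30 bases where they meet were read from the sequences of the fragments, 5′ to 3′ on the reverse strand, at chr13:99425142-99425171 by the stated position (GRCm38). The last 15 bases of RNA2 are in lower case and the first 15 bases of RNA1 in capitals.
Map1b, end of RNA2 and start of RNA1: aaagaacaaaaagaaTGAAGCCTGTTACGA
These bases form an unbroken stretch of the reference genome, at 100195097 to 100195126 of chromosome 13 on NCBIM37.

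**Figure D4:**
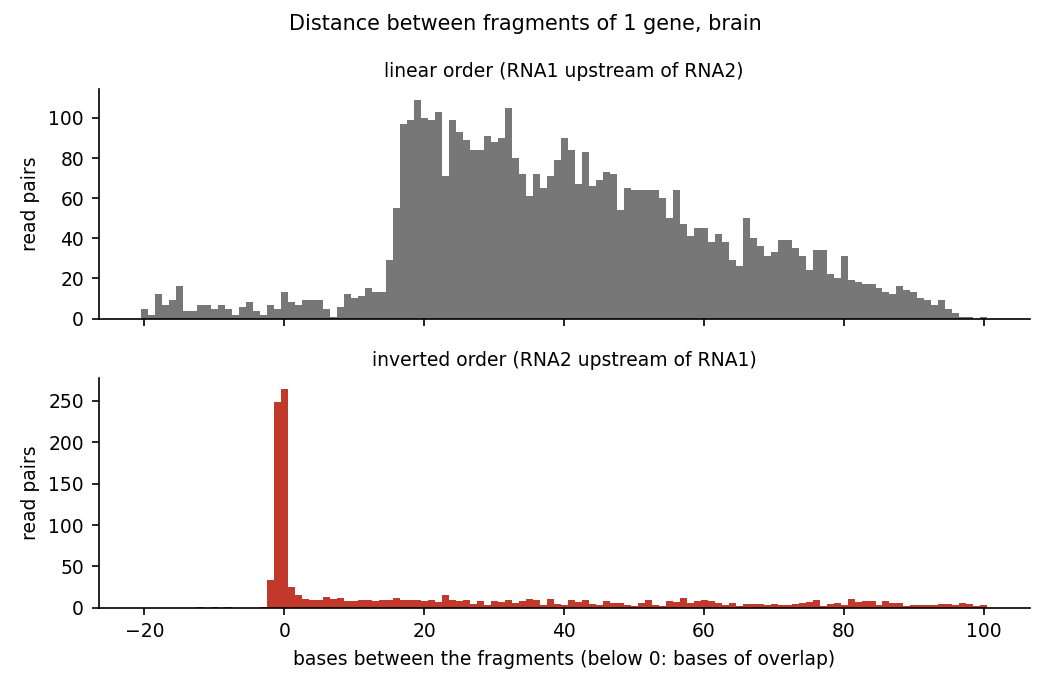
Number of brain read pairs within 1 of the 9 genes (vertical axis) by the bases between their fragments (horizontal axis, values below 0 are overlaps), for linear order above and inverted order below. Inverted read pairs peaked at gaps of -1 and 0 bases, and linear read pairs were few below a gap of 15 bases.

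With ribosomal RNA left out, 7642 between-gene read pairs were named by sequence over all genes. Of these, 198 were in gene pairs with 1 of the 9 genes. Whether the 9 genes were joined to each other less often than other genes was not tested. A single read pair, 1 line in brain 1 and none in brain 2, joined 2 of the 9 genes. Its RNA1 of 44 bases lay in Map2, at 66415771 to 66415816 of chromosome 1 on GRCm38, and its RNA2 of 109 bases lay in Nrxn3, at 88981408 to 88981517 of chromosome 12. Both were on the sense strand. The 30 bases nearest the junction that matched each gene exactly are shown, since this is the only read pair of the kind.
Map2, RNA1, bases 15 to 44: tgcccaggtgagctcaaaggtgtggttgag
Nrxn3, RNA2, bases 20 to 49: ccacatttgtttacttgtggctctctaact
The Map2 stretch lies at 66462361 to 66462390 of chromosome 1 on NCBIM37, inside the coding exon of 3741 bases, and that of Nrxn3 at 90219872 to 90219901 of chromosome 12, in an intron. RNA1 was not placed by sequence across the genome, so its place rests on the stated position and on the match within Map2.

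The remaining 634 read pairs joined 1 of the 9 genes to another place. Of these other ends 77 lay in the ribosomal RNA locus on chromosome 17 (12.1%, 9.83 to 14.9), 72 on the mitochondrial genome (11.4%, 9.12 to 14.1), 389 in other protein-coding genes (61.4%, 57.5 to 65.1), 56 in other genes and 40 outside genes. On the same chromosome as the member lay 22, and 1 of them was within 10000 bases. Of the 634 other ends, 365 had a placement by sequence (57.6%), which was not compared with the stated position. Named by RefSeq spans of GRCm38, these ends lay in 431 nuclear genes, 374 of which occurred in a single read pair and 12 in 3 or more.

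The 10 most frequent partner genes were Rn18s-rs5 with 77 read pairs, AY036118 with 12, Lars2 with 11, Rny1 and Rpph1 with 5 each, Kcnj6 with 4, and Abat, Fam47e, Hspb7 and Rn7sk with 3 each. Slc1a2 and n-TCgca18 also had 3. Rn18s-rs5 is a copy of 18S ribosomal RNA, and the span of AY036118 overlaps it. All 12 AY036118 read pairs matched read pairs among the 77 of Rn18s-rs5 in gene, fragment lengths and lines, so AY036118 adds no partner of its own. All 9 genes had at least 1 read pair with Rn18s-rs5, Map1b the most with 16. Many of the Rn18s-rs5 fragments were short, down to 14 bases, and not placed by sequence at the minimum mapping quality of 10. Of the 11 Lars2 ends only 1 reached that minimum, with a mapping quality of 13. All 11 started between 94894 and 95200 bases from the lower edge of Lars2.

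Rpph1, the RNA of ribonuclease P, was joined to 3 of Map2, 1 of Map1b and 1 of Camk2a read pairs. It was RNA1 in all 5, its fragments ended between -2 and 5 bases from the 3′ edge of the gene, negative values lying beyond it, and all 5 ends in the genes of the set were exonic. Rny1, a small cytoplasmic Y RNA, was RNA2 in 4 of its 5 read pairs, with the fragment reaching to between -1 and 0 bases of the 5′ edge. In the fifth it was RNA1 and touched the 3′ edge. These edges are those of the strand on which the fragments were read.

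Several recurring partners were near copies of 1 read pair. Kcnj6 had 4 read pairs with Snap25, and in all of them RNA1 was the same 17 bases while the Snap25 fragment differed by at most 6 bases at an edge. Fam47e had 3 with Map2, with the same 14-base Fam47e fragment each time and Map2 edges up to 53 bases apart. Hspb7 had 3 with Nrxn3, with edges up to 4 bases apart and all lines in brain 1. For Rny1 and Map1b, 3 read pairs had edges up to 3 bases apart and a Map1b fragment of 16 to 19 bases. Of these, only the Rny1 ends had a partner fragment with any placement by sequence, which was not compared with the stated position.

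A gene pair was called at 3 or more read pairs with an adjusted p below 0.05. One-sided Fisher's exact tests with Benjamini-Hochberg adjustment over 6903 observed gene pairs, made on 7642 between-gene read pairs named by sequence, called 54 gene pairs, or 0.782% of those tested. Of the 192 gene pairs that held 1 of the 9 genes, 1 was called. It joined Anks1b with Abat, the enzyme that breaks down GABA, with 3 distinct read pairs (adjusted p = 3.57e-05 by Fisher's exact test, a description of this library without replicate error). At an unadjusted p under 0.05 by the same exact test stood 159 of the 192, and 5 of the 192 had more than 1 read pair. The 3 read pairs had the same RNA2 of 88 bases in Abat, and their RNA1 in an intron of Anks1b differed by at most 2 bases at its 3′ edge. The last bases of each RNA1 follow, on the forward strand of chromosome 10 and starting at 90925778 (GRCm38), with the bases beyond the shortest in capitals, and then the first 28 bases of RNA2, at chr16:8619247-8619274.
Anks1b, RNA1 number 1: agtttacaagaaaattgcaagttcactg
Anks1b, RNA1 number 2: agtttacaagaaaatggcaagttcactgC
Anks1b, RNA1 number 3: agtttacaagaaaattgcaagttcactgCT
Abat, RNA2: ttgtgtcaatgatagatagtttagtcaa
Number 2 differed from number 1 by T16G, counted from the first base shown. When read pairs with all 4 edges within 5 bases of each other were counted once, no gene pair with 1 of the 9 genes was called and none of them had more than 2 read pairs. The number of called gene pairs with 1 of the 9 genes was also 0 without brain 1, but was 5 at a minimum of 2 read pairs and 29 when every deposited line was counted.

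The same genes were then taken by name in ES indirect, a library of cells that are not neurons. The library is deeper, with 1655476 distinct read pairs, and 1208 of these had an end named for 1 of the 9 genes. EPM values were compared with a pseudocount of 1. Against a background of 13.5% of 13530 protein-coding genes with at least 10 ends that were at least 4-fold higher in brain, 8 of the 9 genes passed that fold. The median log2 ratio of all those genes was -0.36. With 1 biological sample in each group no test was possible. The strain, the crosslinker, the fragmentation and the naming differ along with the tissue and cannot be told apart from it. Of the markers, 5 of 8 for neurons were at least 4-fold higher in brain, with a median log2 ratio of 3.45, as were 4 of 6 for astrocytes (5.22), 6 of 6 for oligodendrocytes (3.98) and 5 of 5 measured for microglia (2.96). Of 2 measured endothelial markers none was 4-fold higher and 1 was 4-fold lower, and all 8 markers of ES cells were lower. The part of these cell types in the folds of the 9 genes was not tested.

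Camk2a was 148-fold higher in brain, with 2734 EPM in brain (2627 to 2845) and 17.5 in ES indirect (10.5 to 27.3). Snap25 was 48.3-fold higher, with 1159 (1089 to 1232) and 23.0 (14.9 to 34.0). Gad1 was 14.3-fold higher, with 343 (306 to 384) and 23.0 (14.9 to 34.0), and Map2 13.6-fold higher, with 1355 and 98.4.

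Nrxn3 was 10.8-fold higher, with 3387 and 312 EPM, and Syt1 10.2-fold higher, with 1856 and 180. Map1b was 5.81-fold higher, with 2155 (2059 to 2254) and 370 (335 to 408). Map1b was also the highest of the 9 genes in ES indirect. Anks1b was 4.73-fold higher, with 1570 and 331. Cdh18 was 2.13-fold higher, with 419 (377 to 463) and 196 (171 to 224), and did not pass the 4-fold mark. When every deposited line was counted, 5 of the 9 log2 ratios of brain over ES indirect rose by more than a factor of 1.5 in fold. They went from 1.09 to 2.40 in Cdh18, which then passed the 4-fold mark, from 3.44 to 4.73 in Nrxn3, from 2.24 to 3.33 in Anks1b, from 3.36 to 4.42 in Syt1 and from 5.59 to 6.36 in Snap25.

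**Figure D5:**
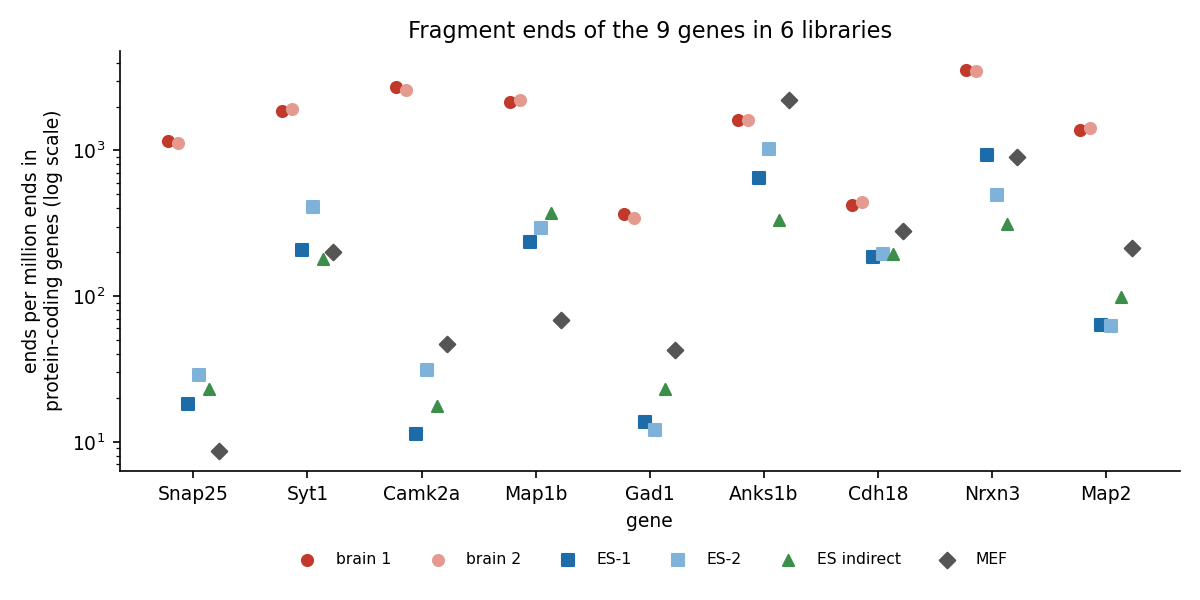
EPM, ends per 1000000 ends in protein-coding genes (vertical axis, log scale), for each of the 9 genes in 6 libraries, 1 point per library. Both brain points lie above the other 4 libraries for every gene but Anks1b, where MEF, at 2221, was above brain.

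In the other libraries the values varied. Snap25 had 18.2 EPM in ES-1, 28.8 in ES-2 and 8.59 in MEF, where it rested on 2 ends. Anks1b had 644 in ES-1, 1016 in ES-2 and 2221 in MEF, so MEF exceeded brain, which had 1608 in brain 1 and 1616 in brain 2. Names as deposited were used in these libraries.

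In ES indirect the ends of the 9 genes, taken by deposited name and not placed by sequence as in brain, were mainly intronic. Of 1686 ends 153 were exonic, or 9.07% (7.80 to 10.5). The highest shares were 28% in Gad1, 7 of 25 ends, and 24.4% in Map1b, 98 of 402 ends. Nrxn3 had 5 of 339 (1.47%) and Cdh18 had 0 of 213, and the Wilson interval of the latter reached 1.77%. In EPM per kb of exon, Map1b stood at 7.47 in ES indirect against 164 in brain, while Camk2a stood at 0.370 against 333. The values in EPM per kb of intron were 0.267 in ES indirect against 4.56 in brain for Camk2a and 0.325 against 3.96 for Snap25. Nrxn3 stood at 0.192 against 1.87, Cdh18 at 0.213 against 0.433 and Map1b at 3.37 against 2.11, the only gene whose intron level was higher in ES indirect.

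The strand also differed. In ES indirect 65.4% of the ends were on the sense strand (63.1 to 67.7), against 99.4% in brain. Map1b was at 99% (97.5 to 99.6), Map2 at 84.1% (76.0 to 89.8) and Syt1 at 76.0% (69.6 to 81.5). Anks1b was at 50.6% (45.4 to 55.7), Cdh18 at 48.4% (41.7 to 55.0) and Nrxn3 at 41.0% (35.9 to 46.3). Snap25 and Gad1 were each at 68% (48.4 to 82.8), with 25 ends, and Camk2a was at 42.1% (23.1 to 63.7), with 19 ends. The EPM values of the 9 genes in ES indirect count ends of both strands.

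The arrangement of read pairs differed too, though by unlike measures. Both ends, taken by deposited name, lay in the same gene in 478 of 1208 read pairs (39.6%, 36.8 to 42.4). In brain, where ends were taken by stated position or by sequence, the share was 91.5%. By sequence alone, at a mapping quality of at least 30, the brain share was 77.8%. Of the 478, 33 were in inverted order (6.90%, 4.96 to 9.54), and 1 of the 33 abutted. An RNA1 of 90 with an RNA2 of 100 bases made up 44.8% of the 1208 read pairs. No read pair joined 2 of the 9 genes. The exonic, sense, same-gene and inverted shares of ES indirect were not set beside those of all genes of that library. Whether they are particular to the 9 genes was not tested.

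Other genes of the same pathways were counted by lists that leave out the 9 genes. In the list of synaptic vesicle and SNARE genes 18 of 20 were at least 4-fold higher in brain than in ES indirect, with a median log2 ratio of 4.21. The postsynaptic density list had 14 of 17, with a median of 3.39, the GABA synapse list 9 of 11, with 3.53, and the neuronal adhesion list 12 of 20, with 2.54. The neuronal cytoskeleton list had 11 of 13, with 3.33. Of its 15 listed genes, only these 13 were found by name in the annotation. None in these lists was at least 4-fold lower. All protein-coding genes had 1830 of 13530 higher and 3228 lower.

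In each list the genes with most brain read pairs also ranged from mainly exonic to mainly intronic. Kif5a, a kinesin motor, had 946 read pairs and 98.1% exonic ends, and Bsn, a scaffold of the active zone, had 536 and 84.1%. Pclo had 403 and 75%, and Ank2, an ankyrin, had 940 and 58.4%. Lower shares were those of Gphn with 641 and 6%, Csmd1 with 1173 and 6.18%, Dlg2, a scaffold of the postsynaptic density, with 1260 and 9.51%, and Opcml with 1047 and 15.4%. Between these lay Rims1, Dlgap1 and Ank3 at 23.6%, 28.9% and 28.9%, and Gabbr2 and Ppp3ca at 54.0% and 54.1%. Gphn, which anchors receptors at inhibitory synapses, had both ends within the gene in 17% of its read pairs, where the other list genes named here had between 78.2% (Opcml) and 90.5% (Bsn).

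The genes whose log2 EPM over the 6 libraries lay nearest to the median profile of the 9 genes were Atp2b2, a calcium pump, at a Euclidean distance of 0.530, then Negr1 (0.697), Lsamp (0.713), Nlgn1 (0.935) and Ank2 (0.997). The 9 genes themselves lay between 1.13 (Syt1) and 7.19 (Gad1) from that median.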

How the data were processed

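MARIO libraries of mouse brain, embryonic stem cells and fibroblasts were analysed from the deposited files, in which the authors gave 1 line per read pair with the positions, strands, sequences and names of both fragments. The deposited values are positions and other text, with no measured unit. Per the labels the reads were aligned with TopHat2 2.1.1 to mm9; stated brain positions matched GRCm38. Distinct positions were counted once over brain 1 and brain 2.

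Brain sequences were placed on NCBIM37 with minimap2 2.31 (preset splice:sr, GENCODE vM1 introns as hints, mapping quality of at least 10), and exons were those of GENCODE vM1, where Map1b and Map2 are listed as Mtap1b and Mtap2. Gene spans on GRCm38 came from RefSeq, which matched 9 of 9 genes. Stem cell and fibroblast ends kept their deposited names. Folds compared ends per 1000000 ends in protein-coding genes, with at least 10 ends. Shares carry 95% Wilson intervals and rates exact Poisson intervals (scipy 1.17.1). Scripts ran in Python 3.11.15 and were tested on simulated data. Reads carried no molecular identifiers in the files used.

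The members and lists were chosen with earlier results of these data known. Named were the 9 genes, partners in a called pair and the 10 most frequent partners, the 3 genes with most read pairs in each of 5 pathway lists, and the 5 genes nearest in profile. Some of the list genes are not reported here. Alternatives were every line counted, edges within 5 bases collapsed, stated positions or sequence alone, other thresholds and pseudocounts, and each brain file left out.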

Additional observations from a re-analysis of the deposited data

How the results depend on the processing

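Counting every deposited line gave 19564 read pairs, 50.05% exonic ends, 99.57% sense ends, 94.9% of read pairs within 1 gene, 22.9% inverted order and 29 called gene pairs, and took Cdh18 past the 4-fold mark (2.40 on the log2 scale). Collapsing edges within 5 bases gave 53.9% exonic ends, 90.8% within 1 gene, 29.3% inverted order and, as an alternative chosen after seeing the data, 0 called gene pairs, as did leaving out brain 1. Without brain 1 or brain 2 the exonic share was 54.2% and 54.4%, and the share within 1 gene 93.5% and 92.9%. Read pairs joining 2 of the genes numbered 0 without brain 1 and 1 without brain 2, and called gene pairs likewise 0 and 1. Placement by sequence alone, at a mapping quality of at least 30, gave 77.8% within 1 gene, a median span of 213 bases, 0 read pairs joining 2 of the genes, 16.6% inverted order and 37.1% abutting. Outside the facing arrangement of 1 intact RNA within 2000 bases, the median span was 268 bases. A minimum of 2 read pairs gave 5 called gene pairs. The inverted and abutting shares were added after seeing the data. The causes of these differences were not tested. Fewer files or stricter placement also leave a smaller number of read pairs. Of 60 alternative values, 37 moved by less than their interval or stayed within 1.5 times the count. Exons could not be classed by stated positions alone, since no GRCm38 exons were used here.

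No paired analysis was possible because brain 1 and brain 2 are technical replicates of 1 animal and no test compares groups by replicate number. Depth limits Gad1 and Cdh18, and the ES indirect values of Snap25, Camk2a and Gad1, which rest on 25 ends or fewer. Intervals leave out the differences between animals.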
